A study of Mus musculus with 127 samples.

Results

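Transcripts of 9 cytokine and colony-stimulating factor receptor genes were read out of the 23946 genes deposited for single cells of mouse bone marrow. The 9 genes were taken by name, and all of them had a row: Csf3r, Csf2ra, Csf2rb, Csf2rb2, Csf1r, Il6ra, Il1r2, Tnfrsf1a and Ifngr1. The study sequenced the mRNA of single wild-type C57BL/6 marrow cells that the labels call GMP-P, to describe states on the way to granulocytes. All cells came from hindlimb marrow enriched on beads for CD117, the Kit receptor, and were sorted by surface staining, captured on a Fluidigm C1 chip and made into SMARTer cDNA and Nextera XT libraries. The labels give 40 cells to a gate named CD11b+, 46 to a gate named Ly6g high and 41 to a gate named Ly6g low, and both Ly6g gates are themselves labelled CD11b+. CD11b is an integrin of myeloid cells and Ly6g a surface protein of granulocytes.

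A deposited table also gave each cell 1 of 11 class names, which are used here as given: HSCP-2 (7 cells), Multi-Lin (1), MDP (1), Eryth (1), Mono (5), Gran-1 (4), Gran-2 (6), Myelo-1 (5), Myelo-3 (9), Myelo-4 (16) and Myelo-2 (72). How the classes were made is not given in the sources used here. Since they describe these same cells, a difference between classes is a description and not a test. The labels name no animal, so each gate is 1 sample, no difference has a replicate check and no p-value is given. Gate, chip and run cannot be told apart.

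Colony-stimulating factors are secreted proteins that keep blood progenitors alive and drive their growth and maturation. The G-CSF receptor Csf3r works as a homodimer and is best known for driving neutrophil output. The GM-CSF receptor pairs its own chain, Csf2ra, with a shared signalling chain, Csf2rb, that also serves the receptors of IL-3 and IL-5. In mice a near copy of that chain, Csf2rb2, serves IL-3 alone. Csf1r, a receptor tyrosine kinase, is the receptor of M-CSF and a hallmark of the monocyte and macrophage line. Il6ra binds IL-6 and signals through Il6st (gp130), Il1r2 is a decoy that binds IL-1 without signalling, Tnfrsf1a is a TNF receptor with a death domain, and Ifngr1 is the ligand-binding chain of the interferon gamma receptor.

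Levels are in TPM, which is each transcript's share of a cell's transcripts after division by length, scaled to a fixed total, and a gene is called detected in a cell at 1 TPM or more. The cells differed in how many genes were detected, with a median of 2234 genes over all cells and a range of 821 to 5173. The gate medians were 2464.5 genes in CD11b+, 1695 in Ly6g high and 2521 in Ly6g low. Granule protein genes took, at the median, 27.7% of the TPM in CD11b+, 57.9% in Ly6g high and 55.7% in Ly6g low, so the same TPM stands for a smaller share of all other transcripts in CD11b+ cells. TPM keeps no read depth, and intervals on shares of cells are exact (Clopper-Pearson) 95% binomial intervals that cover counting error only.

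The promoters of Csf3r and Csf2ra are shown because their products are the ligand-binding chains for G-CSF and GM-CSF, and because both hold a GAGGAA, a core of sites for the myeloid factor PU.1. Capitals mark motif matches in the 300 bases around the gene start, from RefSeq on GRCm38.p6. The Csf3r window is chr4:126024409-126024708 on the plus strand, and the Csf2ra window is chr19:61228369-61228668 on the minus strand.
Csf3r promoter: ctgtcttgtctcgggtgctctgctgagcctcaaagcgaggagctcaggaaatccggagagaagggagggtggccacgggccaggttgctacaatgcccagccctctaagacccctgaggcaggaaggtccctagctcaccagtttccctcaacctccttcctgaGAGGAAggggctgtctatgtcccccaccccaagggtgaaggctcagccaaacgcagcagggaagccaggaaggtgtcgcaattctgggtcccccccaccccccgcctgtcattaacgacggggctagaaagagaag
Csf2ra promoter: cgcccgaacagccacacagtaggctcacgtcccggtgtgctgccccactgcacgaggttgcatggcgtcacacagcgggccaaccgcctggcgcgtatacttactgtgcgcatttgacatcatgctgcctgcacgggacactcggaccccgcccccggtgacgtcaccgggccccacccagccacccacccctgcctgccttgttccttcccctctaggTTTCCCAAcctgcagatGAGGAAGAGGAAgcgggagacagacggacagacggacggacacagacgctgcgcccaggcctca
The RefSeq table held a window for 7 of the 9 genes. Both strands were searched for GAGGAA (PU.1), TTNNGNAA (C/EBP) and TTCNNNGAA (STAT), where N is any base. The 3 searches were independent, so a base can lie in more than 1 match. GAGGAA was present in 4 of the 7 windows against 28.3% of all 32851 promoters in the table, TTNNGNAA in 3 of 7 against 40.7%, and TTCNNNGAA in 3 of 7 against 8.30%. The Csf2ra window holds 2 GAGGAA in a row and 1 match of TTNNGNAA, and the Csf3r window holds 1 GAGGAA. These matches are descriptions of letters, not of bound sites.

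Csf2rb and Csf2rb2 are shown next to each other because their likeness bears on every value of both. The longest open reading frames of their annotated transcripts were 2691 and 2637 bases and matched at 95.2% of 2631 aligned bases. Below is the stretch of 120 bases, aligned without gaps, that held the most differences between them. It is thus less alike than the frames as a whole. It is read in the sense direction of each gene on GRCm38, with the 22 differing bases in capitals. Csf2rb lies at chr15:78325752-78353847 on the plus strand and Csf2rb2 at chr15:78282507-78305721 on the minus strand.
Csf2rb: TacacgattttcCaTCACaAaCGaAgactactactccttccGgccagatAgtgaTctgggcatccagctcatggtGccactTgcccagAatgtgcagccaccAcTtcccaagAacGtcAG
Csf2rb2: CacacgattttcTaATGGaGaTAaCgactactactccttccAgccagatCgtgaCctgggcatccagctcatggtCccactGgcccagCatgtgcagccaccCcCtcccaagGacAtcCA
Of all 150-base windows, the length of 1 read end, 165 were identical in both frames, or 6.49% of those of Csf2rb and 6.63% of those of Csf2rb2. Reads from these windows can be split between the genes by the estimation step, and how far this moved either value was not tested.

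The receptors fell into 3 kinds by how often they were detected. Csf3r was detected in 84 cells, Csf2rb in 80, Ifngr1 in 79, Csf2ra in 73 and Tnfrsf1a in 54. Il1r2 was detected in 26 cells, and mostly at high levels. Il6ra, Csf1r and Csf2rb2 were detected in 8, 6 and 3 cells.

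**Figure D1:**
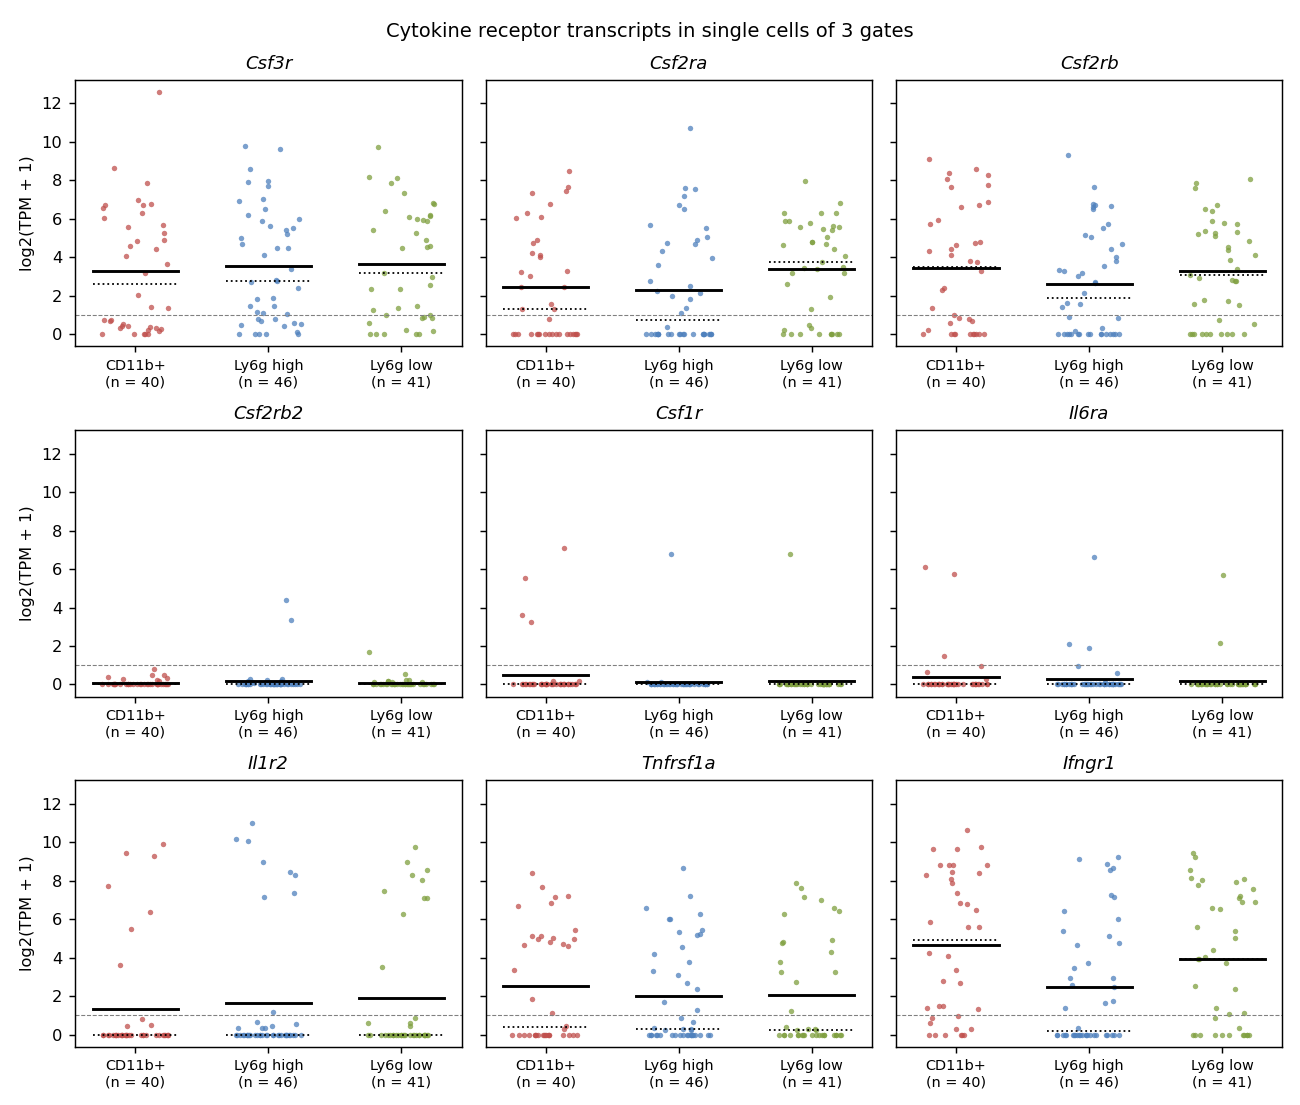
Level of each of the 9 receptor genes in every cell, as log2(TPM + 1), by gate (40 CD11b+, 46 Ly6g high and 41 Ly6g low cells). Points are cells, the solid bar is the mean and the dotted bar the median of the log2 values, and the dashed line marks 1 TPM. The cells of the 3 gates overlap for every gene, and single cells stand far above the rest for Csf3r in CD11b+ and Csf2ra in Ly6g high.

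Csf3r, the G-CSF receptor, was present in every class with more than 1 cell, but at very different levels. By gate it was detected in 57.5% of CD11b+ cells (interval 40.9 to 73%), 71.7% of Ly6g high cells (56.5 to 84%) and 68.3% of Ly6g low cells (51.9 to 81.9%). The values ran from 0 to 6218.75 TPM with a median of 5.61 in CD11b+, from 0 to 888.45 TPM with a median of 5.89 in Ly6g high, and from 0 to 865.14 TPM with a median of 8.21 in Ly6g low. The gates overlapped over nearly their whole range.

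The cells classed Gran-1 and Gran-2 were the steadiest carriers of Csf3r. All 10 had it (interval 69.2 to 100%), from 8.13 to 274.09 TPM, with a median of 100.24 TPM. The 6 Gran-2 cells had 72.86 to 274.09 TPM and the 4 Gran-1 cells 8.13 to 126.02 TPM, so these classes overlap. Among Myelo-4 cells 12 of 16 had it, with a median of 11.285 TPM and a highest value of 888.45. Myelo-1 cells had it in 4 of 5, with a median of 58.70 TPM. Among Myelo-3 cells 4 of 9 had it, among them CD11b+ cell 13, whose 6218.75 TPM was the highest value of any of the 9 genes in any cell. Myelo-2 cells carried it in 46 of 72, with a median of 4.63 TPM. The 7 HSCP-2 cells had a median of 0.47 TPM and a highest value of 46.97, and the single Multi-Lin and MDP cells had 0 and 0.17 TPM.

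Csf2ra, the chain that gives the GM-CSF receptor its ligand, was found in most cells of the Mono, Gran and Myelo-1 classes and in no HSCP-2 cell. It was listed at 0 in all 7 HSCP-2 cells (upper limit of the interval 41%). It was detected in 5 of 5 Mono, 5 of 5 Myelo-1, 9 of 10 Gran-1 and Gran-2, 7 of 16 Myelo-4, 2 of 9 Myelo-3 and 43 of 72 Myelo-2 cells. The median was 46.35 TPM in Myelo-1, 25.68 in Mono, 20.885 in Gran-1 and Gran-2 together, and 2.90 in Myelo-2. The Myelo-1 and Mono ranges, 15.88 to 77.84 and 8.40 to 48.15 TPM, overlapped. HSCP-2 cells also had fewer genes than Mono or Gran cells (median 2728, against 4679 in Mono), but more than Myelo-2 cells (median 2239.5).

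By gate, Csf2ra was detected in 21 of 40 cells in CD11b+, 23 of 46 in Ly6g high and 29 of 41 in Ly6g low. Its median was 1.47 TPM in CD11b+, 0.72 in Ly6g high and 12.74 in Ly6g low. The means gave another order, 33.9 TPM in CD11b+, 58.1 in Ly6g high and 30.1 in Ly6g low. In Ly6g high, 62.7% of the summed Csf2ra came from cell 83, a Myelo-4 cell with 1674.88 TPM, and the mean without it was 22.2 TPM.

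Csf2rb, the shared signalling chain, was the colony-stimulating factor receptor gene with the highest median in HSCP-2 cells. Detection was in 4 of those 7 cells, at 561.05, 337.37, 307.63 and 202.73 TPM, while the other HSCP-2 cells had 0.75 TPM or less. None of the cells of that class had Csf2ra, so the shared chain was detected there without the GM-CSF chain. Its other partner genes were scarce as well: Il3ra, the IL-3 chain, was detected in 8 cells and in no HSCP-2 cell, and Il5ra, the IL-5 chain, in none at all (upper limit 2.86%). Of the 5 Myelo-1 cells, 3 had Il3ra.

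Elsewhere Csf2rb was spread widely. It was detected in 9 of 10 Gran-1 and Gran-2 cells, 5 of 5 Myelo-1, 4 of 5 Mono, 6 of 16 Myelo-4, 2 of 9 Myelo-3 and 49 of 72 Myelo-2 cells. The gate means were 72.2 TPM in CD11b+, 36 in Ly6g high and 36 in Ly6g low, and the medians 10.645, 2.74 and 7.53 TPM in the same gates. The value of Ly6g high cell 79, a Myelo-4 cell with 642.51 TPM, made up 38.8% of the sum in its gate, and the mean there was 22.5 TPM without it.

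Both chains of the GM-CSF receptor were detected in 53 cells, or 41.7% of all (33 to 50.8%). That was 15 of 40 cells in CD11b+, 16 of 46 in Ly6g high and 22 of 41 in Ly6g low. Multiplying the shares of cells with each chain gives 36.2% over all cells, below the 41.7% seen. The product was also below the share seen in each gate. It was 32.81% against 37.5% in CD11b+, 28.26% against 34.78% in Ly6g high and 50.03% against 53.66% in Ly6g low. The interval covers counting error of the joint share only, so it cannot decide whether the chains were detected independently. That was not tested. By class both were detected in 5 of 5 Myelo-1, 8 of 10 Gran-1 and Gran-2, 4 of 5 Mono, 1 of 9 Myelo-3, 3 of 16 Myelo-4 and 31 of 72 Myelo-2 cells.

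**Figure D2:**
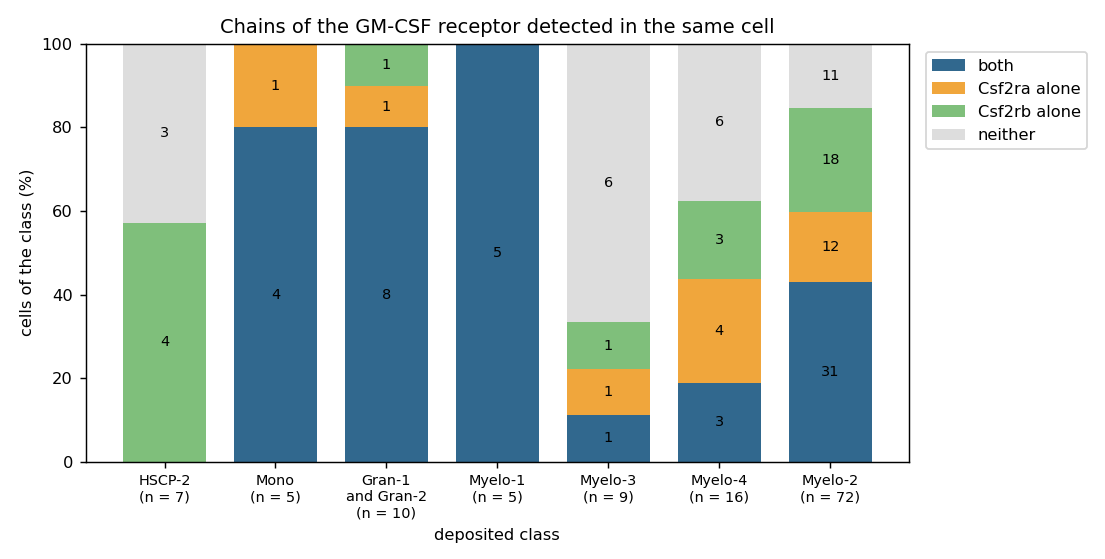
Share of cells of each class in which Csf2ra and Csf2rb were detected together, alone or not at all; numbers in the bars are cells. HSCP-2 cells had Csf2rb alone or neither chain, all 5 Myelo-1 cells had both, and 6 of 9 Myelo-3 cells had neither.

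Csf2rb2, the near copy, was close to absent. It reached 1 TPM in 3 cells: Ly6g high cell 51 had 19.91 TPM, Ly6g high cell 71 had 9.09 TPM and Ly6g low cell 40 had 2.26 TPM. Their Csf2rb values were 12.91, 0.87 and 85.03 TPM. Over all cells Csf2rb2 made up 0.600% of the summed TPM of both genes. A further 23 cells had a value between 0 and 1 TPM, and of the 26 cells above 0, 19 had Csf2rb detected.

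Csf1r, the M-CSF receptor, was confined to the Mono class but for 1 cell. All 5 Mono cells had it (interval 47.8 to 100%), at 136.83, 108.40, 108.26, 45.83 and 8.36 TPM. Outside that class it was detected in 1 of 122 cells (0.0208 to 4.48%), CD11b+ cell 46, a Myelo-4 cell with 11.07 TPM. It was detected in 0 of 10 Gran-1 and Gran-2 cells (upper limit 30.8%), in 0 of 72 Myelo-2 cells (upper limit 4.99%) and not in the single cell classed MDP.

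The other monocyte markers of the list went with the label Mono, which was given from these same cells. The summed level of the 8 markers besides Csf1r was 765.94 to 3926.54 TPM in the 5 Mono cells, with a median of 2308.55, and had a median of 0.235 TPM in all other cells. Of these other cells 2 lay within or above the Mono range. CD11b+ cell 39, an HSCP-2 cell without Csf1r, had 1895.16 TPM, of which Ctss, a lysosomal protease, made up 1892.8 TPM. CD11b+ cell 46 had all 8 of them, summing to 7460.25 TPM, the highest of any cell. It had 1811 genes detected and 2422.44 TPM of the 9 neutrophil markers, whose median was 520622 TPM in Myelo-2. These markers go against its class label. The cell classed MDP had 1 of the 8 monocyte markers but 4 of 5 basophil and mast cell markers, which summed to 222546 TPM. It also held the highest Il3ra value, 182.2 TPM.

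Csf3r and Csf1r were not exclusive. Of the 5 Mono cells, 4 had both, at 37.17, 28.70, 21.67 and 1.39 TPM of Csf3r, and the remaining Mono cell had 0.15 TPM of Csf3r beside 45.83 TPM of Csf1r. No cell outside the Mono class had both.

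Il6ra, the IL-6 binding chain, was detected in 8 cells. The Myelo-3 class held 3 of them, 1 in each gate: Ly6g high cell 48 had 98.41 TPM, CD11b+ cell 33 had 53.29 TPM and Ly6g low cell 9 had 50.88 TPM. That is 3 of 9 Myelo-3 cells (7.49 to 70.1%), against 1 of 72 Myelo-2 cells (0.0352 to 7.5%). It was detected in 2 of 5 Mono cells (5.27 to 85.3%) and 2 of 16 Myelo-4 cells (1.55 to 38.3%). No ratio is given for it, since it passed the detection filter in no comparison. Of the remaining cells, CD11b+ cell 47 of the Mono class had 67.64 TPM, and the others had 1.79 to 3.40 TPM. Il6st, the signalling partner, was detected in 1 cell, Ly6g high cell 77, a Mono cell with 4.37 TPM of Il6st and 3.35 TPM of Il6ra.

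Il1r2, the IL-1 decoy receptor, was mostly either at 0 or high. It was at 0 TPM in 88 cells, and of the 26 cells in which it was detected, 20 had over 100 TPM, up to 2016.08 TPM in Ly6g high cell 66. It was detected in 7 of 40 cells in CD11b+, 9 of 46 in Ly6g high and 10 of 41 in Ly6g low, with medians of 0 in all gates and means of 65.4, 124 and 69.2 TPM in the same order. By class it was detected in 4 of 5 Myelo-1, 2 of 10 Gran-1 and Gran-2, 3 of 16 Myelo-4, 1 of 9 Myelo-3 and 16 of 72 Myelo-2 cells, and in none of the 7 HSCP-2 or 5 Mono cells. The cells classed Myelo-1 that had it ranged from 10.55 to 134.30 TPM.

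Il1r1, the receptor that does signal for IL-1, was detected in 2 cells, neither of which had Il1r2. Il1rap, the accessory chain of both IL-1 receptors, was detected in 21 cells, of which 8 were in CD11b+, 4 in Ly6g high and 9 in Ly6g low. It was found with Il1r2 in 0 of 40 cells in CD11b+, 1 of 46 in Ly6g high and 7 of 41 in Ly6g low. These are 0%, 2.17% and 17.1%, where multiplying the shares of each gene gives 3.5%, 1.70% and 5.35%.

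Tnfrsf1a, the TNF receptor with a death domain, had its highest class median in Gran-2, though the highest single value, 407.15 TPM, was in a Myelo-2 cell. Of the Gran-2 cells 5 of 6 had it, with a median of 121 TPM and a highest value of 333.82, and it was detected in 2 of 4 Gran-1 and 3 of 5 Mono cells. Detection was in 34 of 72 Myelo-2 cells with a median of 0.23 TPM, 4 of 16 Myelo-4, 3 of 9 Myelo-3, 1 of 7 HSCP-2 and 1 of 5 Myelo-1 cells. The shares and means of the gates lay close together: 19 of 40 cells in CD11b+, 19 of 46 in Ly6g high and 16 of 41 in Ly6g low had it, with means of 33.8, 23.6 and 26.6 TPM. Tnfrsf1b, the other TNF receptor, was detected in 12 of 40 cells in CD11b+, 3 of 46 in Ly6g high and 6 of 41 in Ly6g low. It was found together with Tnfrsf1a in 8, 0 and 2 cells of these gates.

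Ifngr1, the ligand-binding chain of the interferon gamma receptor, had the highest median of the 9 genes in the Gran classes. All 10 Gran-1 and Gran-2 cells had it, from 88.66 to 1561.67 TPM with a median of 396.55. All 5 Mono cells had it, from 109.33 to 558.03 TPM with a median of 347.80. HSCP-2 cells had it in 6 of 7, but split: 3 cells had 453.22 to 461.44 TPM and the other 4 had 33.43 TPM or less. The 4 lower ones were the same cells in which Csf2rb was detected, and the 3 higher ones had 0.75 TPM or less of Csf2rb. In Myelo-1 it was detected in 4 of 5 cells with a median of 216.95 TPM.

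The Myelo-3 and Myelo-4 classes were nearly without Ifngr1. Only 1 of 9 Myelo-3 cells (0.281 to 48.2%) and 3 of 16 Myelo-4 cells (4.05 to 45.6%) had it, against 47 of 72 Myelo-2 cells (53.1 to 76.1%). The highest value was 46.50 TPM in Myelo-3 and 25.83 TPM in Myelo-4, against 851.82 TPM in Myelo-2, whose median was 5.195 TPM. These classes also had fewer genes detected, with medians of 1282 in Myelo-3 and 1409 in Myelo-4, against 2239.5 in Myelo-2. Myelo-2 cells with no more genes than the highest Myelo-4 cell (1863) had Ifngr1 in 9 of 20, with a mean of 25.9 TPM, against 1.88 TPM in Myelo-4. Ifngr2, the signalling chain of the same receptor, was detected in 50 cells, 37 of which also had Ifngr1.

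**Figure D3:**
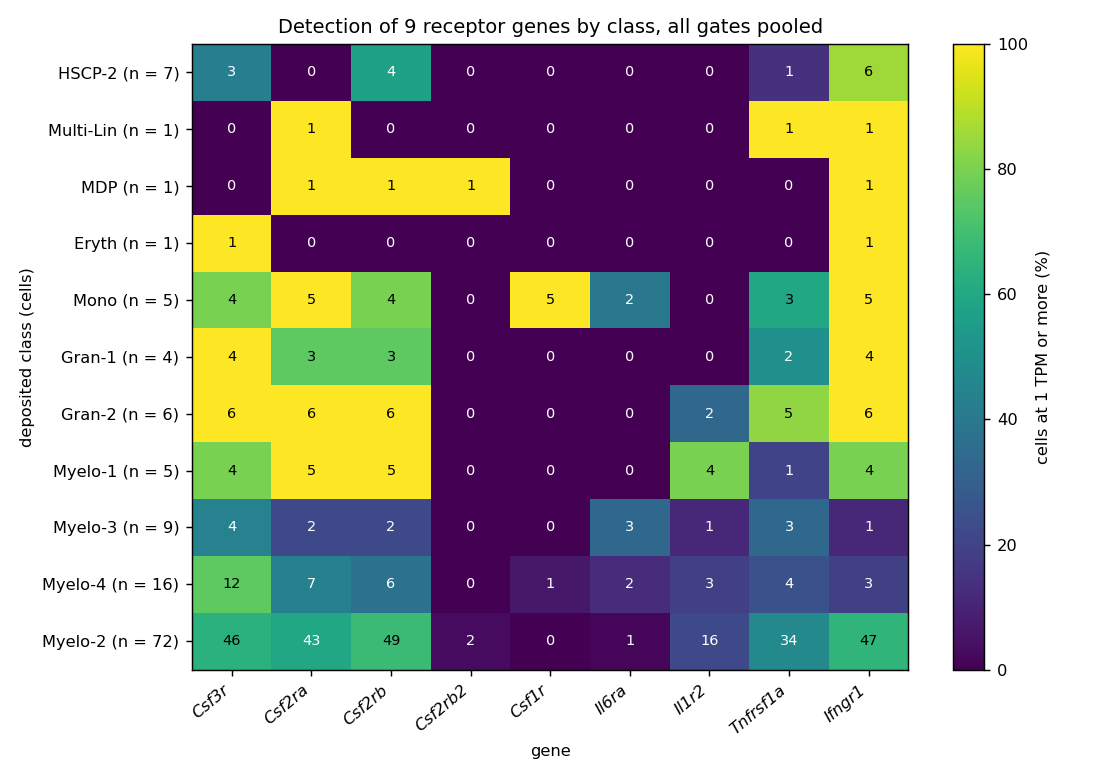
Share of cells of each deposited class in which each receptor gene was detected, all gates pooled; numbers are cells and the colour is the percent of the class. Csf1r is filled for Mono, Ifngr1 for the Gran and Mono classes but nearly empty for Myelo-3 and Myelo-4, and Csf2ra is empty for HSCP-2.

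The number of receptors per cell went with the number of genes per cell. A cell had a median of 3 of the 9 receptor genes, from 0 in 3 cells to 7 in CD11b+ cell 47 of the Mono class. The mean was 2.50 receptor genes in the 42 cells with the fewest genes, 3.05 in the next 42 and 4.19 in the 43 with the most. Mean counts were 5.60 in Mono, 5.17 in Gran-2, 4.6 in Myelo-1, 4 in Gran-1, 2 in HSCP-2, 1.78 in Myelo-3, 2.38 in Myelo-4 and 3.31 in Myelo-2. HSCP-2 cells stood at 2 receptor genes with more genes detected (median 2728) than Myelo-2 cells. Il1r2 did not go with the gene number: it was detected in 26.2%, 14.3% and 20.9% of the cells from the fewest to the most genes, while Ifngr1 was detected in 31%, 66.7% and 88.4%.

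**Figure D4:**
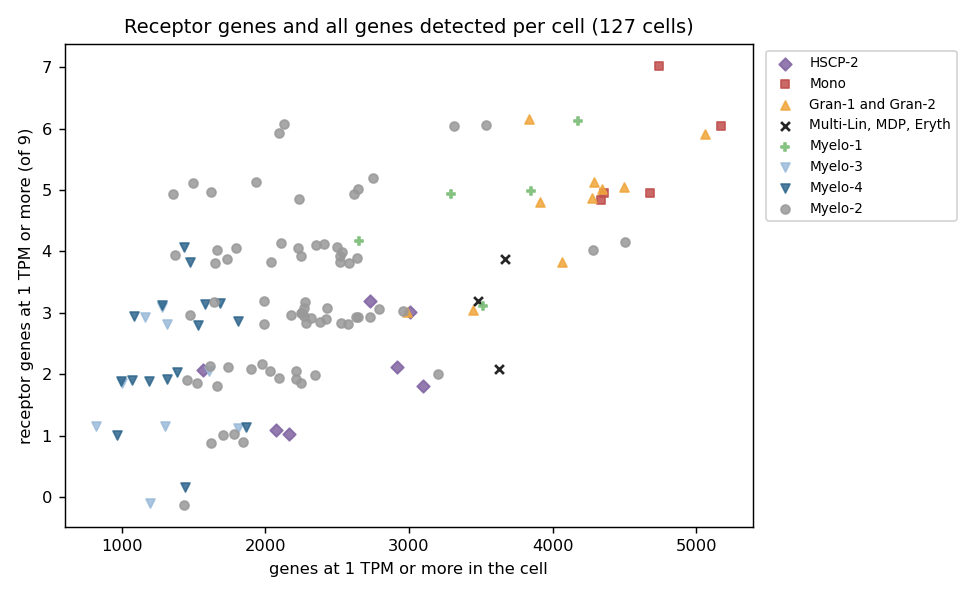
Receptor genes detected (of 9; points are moved slightly up or down so that they do not hide each other) against all genes detected, 1 point a cell, by class. Mono and Gran cells sit at the upper right, Myelo-3 and Myelo-4 cells at the lower left, and HSCP-2 cells at 1 to 3 receptor genes.

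The levels of the receptors were at most weakly correlated across cells. Over the 36 pairs of the 9 genes, Pearson's r of log2(TPM + 1) across all cells ran from -0.13 to 0.24 with a median of 0.04, and the cells share class and depth. Many pairs include Csf2rb2, Csf1r or Il6ra, detected in 3, 6 and 8 cells, which limits r. Among the 5 genes detected most often, r ran from 0.03 (Csf3r with Ifngr1) to 0.22 (Csf3r with Tnfrsf1a). The genes most like Ifngr1 among 3203 genes were Nkg7 (r = 0.61), Ssr4 (0.58) and Elane (0.58), and within the 72 Myelo-2 cells these were 0.37, 0.28 and 0.22. The median r with all 3203 genes was 0.22 for Ifngr1, 0.05 for Csf3r, 0.10 for Csf2ra, 0.12 for Csf2rb and 0.08 for Tnfrsf1a. For Csf3r the closest were Hmha1 (0.35), Rbm10 (0.34) and Cxcr2 (0.31), for Csf2ra Vim, Rpn1 and Siva1 (all 0.38), for Csf2rb Mrpl28 (0.41), Dnm1l (0.38) and Slc50a1 (0.38), and for Tnfrsf1a Mrpl27, Dedd and Pias1 (all 0.35). Correlations of this size in sparse single cells are descriptions.

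For differences between gates, a gene counted as measured in a pair if it was detected in 25% or more of the cells of 1 or both gates, and the log2 ratio of the mean TPM, with 1 TPM added, was read against a 2-fold line. Only 5 of the 9 receptor genes were measured in the pairs of gates: Csf3r, Csf2ra, Csf2rb, Tnfrsf1a and Ifngr1.

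Between CD11b+ and Ly6g low, 2 of the 5 stood 2-fold or more higher in CD11b+ and 0 lower, where 30.3% of the 4774 measured genes were higher and 7.83% lower and the median gene was at 0.48. Csf3r had a mean of 195 TPM in CD11b+, against 66.6 TPM in Ly6g low, a log2 ratio of 1.54. That ratio rests on CD11b+ cell 13, which held 79.6% of the Csf3r sum of its gate: without it the CD11b+ mean was 40.8 TPM and the log2 ratio -0.69. Ifngr1 had a mean of 201 TPM in CD11b+, against 98.9 TPM in Ly6g low, a log2 ratio of 1.02, only just past 2-fold. Among the 4 Myelo classes alone it was -0.24. Csf2rb stood just under the line, with 72.2 TPM in CD11b+, against 36 TPM in Ly6g low (1.98-fold, log2 ratio 0.99). Tnfrsf1a and Csf2ra had log2 ratios of 0.34 and 0.17.

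Between CD11b+ and Ly6g high, 2 of the 5 were again 2-fold or more higher in CD11b+ and 0 lower, where 44.5% of 4447 measured genes were higher and 6.93% lower and the median gene was at 0.83. Ifngr1 had a mean of 201 TPM in CD11b+, against 65.8 TPM in Ly6g high, a log2 ratio of 1.6, and 1.6 too without the highest cell of each gate. It was 0.08 among Myelo-2 cells alone. There CD11b+ cell 18 had 851.82 TPM, and the mean of the 14 CD11b+ cells was 76 TPM. Csf3r was at 1.30 with CD11b+ cell 13 and at -0.93 without it. Csf2rb was at 0.98 or 1.98-fold, Tnfrsf1a at 0.50 and Csf2ra at -0.76. Both comparisons share the CD11b+ cells. In each, 2 of 5 receptor genes is near the share over all measured genes. Summed neutrophil markers went with the gates as well, with medians of 221092 TPM in CD11b+, 547499 in Ly6g high and 506386 in Ly6g low, and their part in these values was not tested.

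With TPM rescaled to a total without granule protein genes, the median gene was at 0.04 between CD11b+ and Ly6g low and at 0.26 between CD11b+ and Ly6g high. Of all measured genes 1019 were then higher and 793 lower in the pair with Ly6g low (1447 and 374 before), and 1415 higher and 758 lower in the pair with Ly6g high (1977 and 308 before). On that scale Ifngr1 was at 0.71 and 0.98 in these pairs, Csf3r at 0.72 and 0.32, Csf2rb at 0.42 and 0.26, Csf2ra at -0.05 and -1.21 and Tnfrsf1a at -0.48 and -0.47. Tnfrsf1a thus had the opposite sign in both pairs, and Csf2ra in the pair with Ly6g low.

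Between Ly6g high and Ly6g low none of the 5 stood past 2-fold in either direction, where 7.96% of 3983 measured genes were higher and 23.7% lower in Ly6g high and the median gene was at -0.29. Csf2rb was at 0.00 with means of 36 TPM in both gates. Csf3r was at 0.24, Tnfrsf1a at -0.16 and Ifngr1 at -0.58, with means of 65.8 TPM in Ly6g high, against 98.9 TPM in Ly6g low. Csf2ra was at 0.93, at -0.14 without the highest cell of each gate, and at 1.16 with the TPM rescaled.

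**Figure D5:**
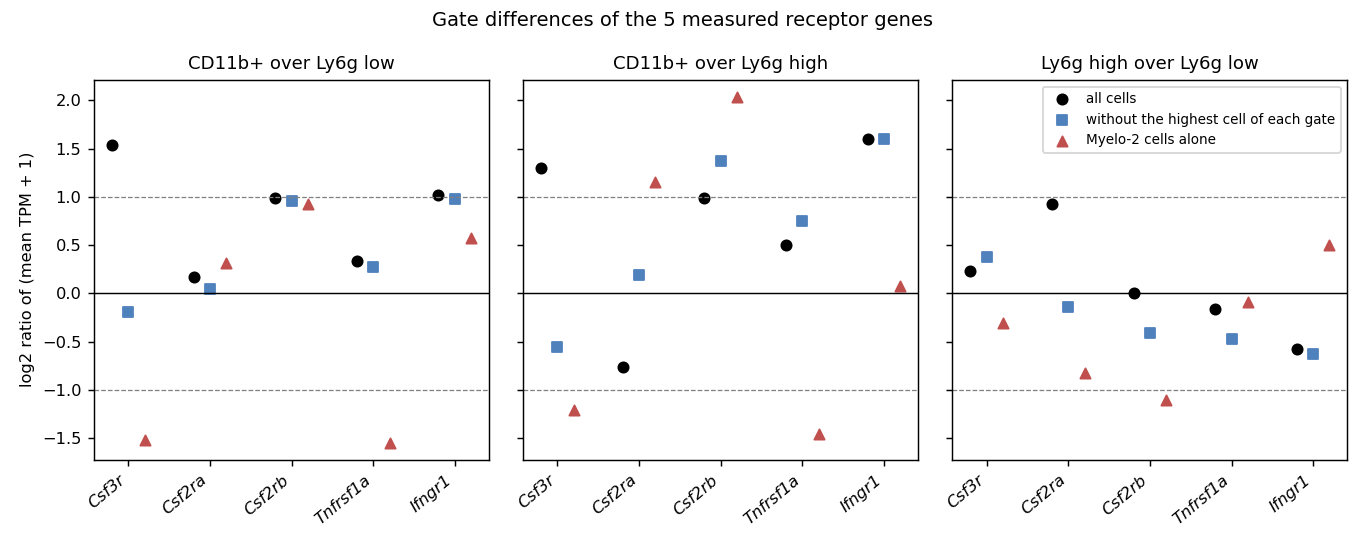
Log2 ratio of mean TPM plus 1 for the 5 measured receptor genes in each pair of gates, over all cells, without the highest cell of each gate and among Myelo-2 cells alone. Dashed lines mark 2-fold. Csf3r lies at 1.54 and 1.30 over all cells of the CD11b+ pairs and below 0 in the other settings, and Ifngr1 lies nearer to 0 among Myelo-2 cells than over all cells in the CD11b+ pairs.

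The part of class in the gate differences was not tested. Gate means were also taken from the Myelo-2 cells alone. In them Csf3r had a mean of 23.5 TPM in 14 CD11b+ cells, 55.4 TPM in 27 Ly6g high cells and 69.1 in 31 Ly6g low cells. Tnfrsf1a had 11.1 TPM in CD11b+, 32.1 in Ly6g high and 34.2 in Ly6g low. Csf2rb had 69.3 TPM in CD11b+, 16.2 in Ly6g high and 36 in Ly6g low, and Ifngr1 76, 72 and 50.6 TPM in the same gates. Single cells weighed heavily in these means. Ifngr1 was at 851.82 TPM in CD11b+ cell 18 and Csf3r at 865.14 TPM in Ly6g low cell 12. Csf2rb was at 389.4, 264.61 and 217.35 TPM in CD11b+ cells 7, 11 and 24.

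Inside the Ly6g high gate the 13 Myelo-4 and 27 Myelo-2 cells differed in all 5 measured receptor genes, in both directions. Of the 5, 3 stood 2-fold or more higher in Myelo-4 and 2 lower, where 13.7% of 3105 measured genes were higher and 45.3% lower and the median gene was at -0.75. The lower ones were Ifngr1, with a mean of 2.19 TPM in Myelo-4 and 72 TPM in Myelo-2 (log2 ratio -4.52), and Tnfrsf1a, with 4.17 TPM in Myelo-4 and 32.1 TPM in Myelo-2 (-2.68). Both entered the comparison only through Myelo-2: Ifngr1 was detected in 2 of 13 Myelo-4 and 17 of 27 Myelo-2 cells, and Tnfrsf1a in 3 of 13 Myelo-4 and 14 of 27 Myelo-2 cells. Against the 10 Myelo-2 cells of this gate with no more genes than the highest Myelo-4 cell, they were at -3.40 and -3.47.

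The higher ones were Csf2ra at 3.41, Csf2rb at 2.02 and Csf3r at 1.47, but these means came from few cells. Csf2ra was detected in 5 of 13 Myelo-4 and 16 of 27 Myelo-2 cells, Csf2rb in 5 of 13 and 18 of 27, and Csf3r in 11 of 13 and 19 of 27. The Csf2ra and Csf2rb medians were 0 TPM in Myelo-4 and 2.63 and 5.60 TPM in Myelo-2, so median and mean go opposite ways for both. Without the highest cell of each class the log2 ratios were 1.65 for Csf2ra, 0.66 for Csf2rb and 1.12 for Csf3r. The Csf3r medians were 16.51 TPM in Myelo-4 and 5.72 TPM in Myelo-2. The median was 25.125 TPM in the 10 Myelo-2 cells with no more genes than the highest Myelo-4 cell, so the order turns. Those 10 cells were limited, not matched, in gene number, with a median of 1616 genes, against 1318 in Myelo-4. Against those 10 Myelo-2 cells the log2 ratio was 0.85 for Csf3r, under 2-fold, 4.81 for Csf2ra and 2.91 for Csf2rb.

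Inside the CD11b+ gate the 8 Gran-1 and Gran-2 cells were set against 14 Myelo-2 cells, where 55.4% of 6679 measured genes were 2-fold or more higher in the Gran cells and 11.8% lower, and the median gene was at 1.26. Of the 6 measured receptor genes, 3 were higher and 1 lower, and 3 of 6 is near the share over all measured genes. Ifngr1 had a mean of 510 TPM in Gran cells and 76 TPM in Myelo-2 cells, a log2 ratio of 2.73. Tnfrsf1a had 105 TPM in Gran cells and 11.1 TPM in Myelo-2 cells (3.14), and Csf3r 89.2 TPM and 23.5 TPM (1.88). Without the highest cell of each class the log2 ratios were 4.38 for Ifngr1, 2.92 for Tnfrsf1a and 1.98 for Csf3r. Ifngr1 ranged from 88.66 to 1561.67 TPM in Gran cells and from 0 to 851.82 TPM in Myelo-2 cells, so the classes overlap.

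Il1r2 was the one that stood lower, with a mean of 1.45 TPM in Gran cells and 180 TPM in Myelo-2 cells. It entered this comparison only through Myelo-2, where 5 of 14 cells had it, against 1 of 8 Gran cells. Csf2ra was at 0.34 and Csf2rb at 0.03. With the TPM rescaled without granule genes the median gene was at 0.46, Ifngr1 was at 1.91, Tnfrsf1a at 2.28 and Csf3r at 1.06, while Csf2ra and Csf2rb changed sign to -0.41 and -0.75. Granule genes took a median of 9.16% of the TPM in Gran-1, 13.4% in Gran-2 and 56.7% in Myelo-2 over all gates. All 9 neutrophil markers were 2-fold or more lower in the Gran cells, with a median sum of 26502 TPM in Gran-1 and Gran-2 and 520622 TPM in Myelo-2 over all gates. The part of this in the receptor values was not tested.

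The ligands of these receptors were hardly present in the cells. Of 13 ligand genes none was measured in any pair of gates. Csf2, Csf3, Il34, Il3, Il5, Il1a, Lta and Ifng were detected in no cell, Csf1 and Il6 in 1 cell each and Il1b in 2. Tnf was detected in 21 cells, with means of 51.8 TPM in CD11b+, 9.01 in Ly6g high and 12.5 in Ly6g low. Il1rn, the natural antagonist of IL-1, was detected in 12 cells.

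Of 25 genes of the JAK and STAT pathway, which carries the signal of the cytokine receptors, 14 were measured between CD11b+ and Ly6g low. Of these 4 were 2-fold or more higher in CD11b+ and 1 lower, beside 30.3% higher and 7.83% lower over all measured genes. The list's median was 0.62, against 0.48 over all measured genes. Stat6, a transcription factor of IL-4 signalling, had a mean of 76 TPM in CD11b+, against 11.8 TPM in Ly6g low. Lyn, a Src family kinase, had 161 TPM in CD11b+, against 32.4 TPM in Ly6g low, and the adaptor Shc1 was lower, with 14.3 TPM in CD11b+, against 33.4 TPM in Ly6g low. Between CD11b+ and Ly6g high 4 of 14 were higher and 1 lower, beside 44.5% and 6.93% over all measured genes. Between Ly6g high and Ly6g low 2 of 11 were higher and 0 lower, beside 7.96% and 23.7%. With the TPM rescaled without granule genes the split was 3 higher and 2 lower of 15 in the pair of CD11b+ and Ly6g low. All measured genes split there into 1019 higher and 793 lower of 5056. In the pair of CD11b+ and Ly6g high the list split into 2 higher and 4 lower of 14. All measured genes split there into 1415 higher and 758 lower of 4689. The list's median turned to -0.21 in that pair, against 0.26 over all measured genes. The 54.1% share of 1 cell in the CD11b+ sum of Lyn left a mean of 75.7 TPM without it.

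Of 16 genes of TNF and IL-1 signalling, 9 were measured between CD11b+ and Ly6g low, with 5 higher in CD11b+ and 0 lower, beside 30.3% higher over all measured genes, and a list median of 1.09 beside 0.48. Myd88, the adaptor of IL-1 and Toll-like receptors, had 138 TPM in CD11b+, against 45.6 TPM in Ly6g low, and Irak3, an inhibitor of that pathway, 70.1 TPM in CD11b+, against 15.1 TPM in Ly6g low. Myd88 was detected in 15 of 40 cells in CD11b+ and 17 of 41 in Ly6g low, and Irak3 in 10 of 40 and 15 of 41. Detection was thus not higher in CD11b+ for either gene. Of the CD11b+ sum of Myd88, 1 cell held 39.4%, and the mean without it was 85.5 TPM. Between CD11b+ and Ly6g high 4 of 8 were higher and 0 lower, beside 44.5% higher over all measured genes, with a median of 1.006 beside 0.83. Between Ly6g high and Ly6g low 1 of 8 was higher and 0 lower, beside 7.96% higher over all, with a median of -0.43 beside -0.29. Rescaled without granule genes, the split was 3 higher and 2 lower of 12 between CD11b+ and Ly6g low, and 4 higher and 0 lower of 10 between CD11b+ and Ly6g high. Over all measured genes it was 1019 higher and 793 lower of 5056, and 1415 higher and 758 lower of 4689. Of 34 further cytokine receptors 6, 6 and 4 were measured in these pairs. Il18rap, a chain of the IL-18 receptor, was lower in CD11b+, with 5.80 TPM, than in Ly6g low, with 40.9 TPM, and was measured only through Ly6g low, where 19 of 41 cells had it, against 8 of 40 in CD11b+. Kit, the receptor whose antigen was used to enrich the marrow, had 63.5 TPM in CD11b+, 2.56 in Ly6g high and 19.95 in Ly6g low. It was measured only through CD11b+, where 19 of 40 cells had it, against 6 of 46 in Ly6g high and 9 of 41 in Ly6g low.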

How the data were processed

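Single cells were sequenced as paired 150-base reads, per the labels. The authors deposited 1 table of log2(TPM + 1) values for 23946 genes by cell and 1 table of class names. The scale was read from the values: turned back, each cell summed to between 999633 and 1005380 TPM. The tools Bowtie2 and RSEM and the build mm9 are listed, per the submitters' processing notes. Their versions, roles and the annotation are not given in the sources used here. Every column belonged to a sample.

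Gates came from the sample titles. From the deposited log2 values TPM was recovered as 2 to the power of the value, minus 1. Ratios are log2 of (mean TPM + 1) of the first group over that of the second, which understates differences near 1 TPM. All deposited cells were used, the deposited classes were kept, nothing was clustered and no doublet caller was run. No depth is recorded in TPM, so the number of genes detected stands in for it.

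The 9 genes and all gene lists were chosen with earlier results of these data known. All 9 genes and their partner chains are named. From other lists up to 3 genes each way per pair were eligible, past 2-fold and at a gate mean of at least 10 TPM. Some genes eligible by this rule are not reported here. The 3 genes most like a receptor came from those detected in 25% of all cells. Cells named singly were chosen after their values were seen. The calculation was tested on simulated data, made by planting known folds into genes with high means in resampled Ly6g low cells. That checks the arithmetic only. Alternatives covered the pseudocount, filter, kind of mean, scaling, detection level and cells used. Promoters came from RefSeq (GRCm38.p6) and reading frames from the GENCODE transcripts for GRCm38, another build than that of the values. Python 3.11.15, pandas 2.3.3, numpy 2.4.6, scipy 1.17.1 and Biopython 1.88 were used.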

Additional observations from a re-analysis of the deposited data

How the results depend on the processing

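No paired analysis was possible because each gate is 1 sample and the cell numbers are only names. Without any test, every value describes these cells, and gate means rest on few of them. The log2 ratio of Csf3r turned negative between CD11b+ and Ly6g low with a 10% trimmed mean (-0.30), mean log2 values (-0.37), without the highest cell of each gate (-0.19), without the gene-poorest cells (-0.86), in Myelo-2 alone (-1.52) and without CD11b+ cell 13 (-0.69). Between CD11b+ and Ly6g high it did so under the same settings in the same order (-0.40, -0.26, -0.56, -1.19, -1.21 and -0.93). Ifngr1 was at -0.24 between CD11b+ and Ly6g low in the 4 Myelo classes, and Csf2rb at -0.29 between Myelo-4 and Myelo-2 with mean log2 values. The cause was not tested, except that cell 13 alone turns Csf3r. The 4 Myelo classes, leaving out cell 13 and Myelo-2 cells limited in gene number were chosen after seeing the data.

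Receptor genes past 2-fold between CD11b+ and Ly6g low numbered 2, both higher in CD11b+, but 1 with 10 TPM added and 0 with trimmed means, mean log2 values, the highest cells left out or TPM rescaled without granule genes. They numbered 3 with 0.1 TPM added, 3 in Myelo-2 alone (1 higher, 2 lower) and 2 in the 4 Myelo classes (1 higher, 1 lower). Between CD11b+ and Ly6g high they numbered 2, both higher, but 1 with mean log2 values, 1 with rescaling (lower), 3 with 0.1 TPM added, 4 without the gene-poorest cells (3 higher, 1 lower), 4 in Myelo-2 alone (2 higher, 2 lower) and 2 in the 4 Myelo classes (1 higher, 1 lower). Between Ly6g high and Ly6g low they numbered 0, but 1 with trimmed means, in Myelo-2 alone or in the 4 Myelo classes and 2 with mean log2 values or rescaling. Between Myelo-4 and Myelo-2 in Ly6g high they numbered 5, but 2 with mean log2 values, Ifngr1 and Tnfrsf1a, which entered only through Myelo-2. They numbered 4 without the highest cells, where Csf2rb was at 0.66, and 6 with no filter. Against Myelo-2 cells with no more genes than the highest Myelo-4 cell they numbered 4. Between Gran and Myelo-2 cells the count was 4 to 6 under every setting run. The number of receptor genes measured changed as well. Between CD11b+ and Ly6g low it was 5, but 6 in Myelo-2 alone, 4 with the filter at 50% of the cells and 9 with no filter. The median gene in that pair moved from 0.48 to -0.07 in Myelo-2 alone. With rescaling, 2 of 6 receptor genes were higher in Ly6g high than in Ly6g low, where all measured genes split into 502 higher and 942 lower of 4308. All measured genes split into 545 higher and 1562 lower of 3459 between Myelo-4 and Myelo-2. Between Gran and Myelo-2 cells they split into 2785 higher and 1533 lower of 6786. Apart from the rescaled TPM, no share over all measured genes is given for these settings, so their counts cannot be read against one. Ratios of single receptor genes took the opposite sign in 45 of 246 cases, 14 of them from a reported value past 2-fold (given above) and 31 from one under it.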
